A study of Mus musculus with 2 samples.

Results

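The cells described here are macrophages of injured mouse muscle that held messenger RNA of the chemokine gene Cxcl3. They were chosen by gates on raw unique molecular identifiers (UMIs, each counting 1 captured RNA molecule) in the library of muscle collected 24 hours after injury. A cell entered the set with at least 3 UMIs of Csf1r, Cd68 and Adgre1 together and at least 2 of Cxcl3. It also had to hold at most 1 UMI of Gpnmb, at most 1 of Mrc1, at most 2 of Plac8, fewer than 10 of S100a8, and 0 of Cdh5 and Pdgfra. The gates found 302 of the 4421 injured cells kept, a share of 6.83% (exact Clopper-Pearson 95% interval 6.10% to 7.61%), among 9806 cells kept in both libraries.

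The study profiled single cells of the tibialis anterior, a muscle of the lower leg, from C57B/6 mice aged 12 weeks. There were 2 libraries of muscle protease digests, 1 of uninjured muscle and 1 of muscle collected 24 hours after barium chloride was injected to injure it. The treatment field of both libraries names an intramuscular injection of 1.2% BaCl, so whether the control muscle was injected is not clear from the labels, which also give no number of mice. With 1 library per condition there are no replicates: no test was made, and every interval below is a 95% interval for counting error alone.

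The uninjured library held 5581 barcodes with a median of 3237 UMIs and the injured library 4489 with a median of 7282, and 5385 and 4421 of them were kept. Xist, the RNA that coats the inactive X chromosome, had 17744 UMIs in the uninjured library and 0 in the injured library, while Y-linked genes had 0 and 4698. Injury, the sex of the animal, depth and the library therefore cannot be told apart in any comparison across the libraries. The libraries shared 33 barcodes, 1 of them in the Cxcl3 set.

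Macrophages and monocytes that enter damaged muscle read cell debris and cytokines through pattern and interleukin receptors, many of which signal through the transcription factor NF-kappaB. Among the genes this switches on are the CXC chemokines Cxcl1, Cxcl2 and Cxcl3, which attract neutrophils through the receptor Cxcr2, and the interleukin 1 ligands Il1a and Il1b. In muscle such inflammatory macrophages precede macrophages that clear debris and support regeneration, and interleukin 10 is known as a brake on the inflammatory phase.

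Cxcl3 lies at chr5:90786103-90789600 of mm10, on the plus strand, in a run of CXC chemokine genes ordered Cxcl5, Ppbp, Pf4, Cxcl3, Cxcl1 and Cxcl2 that spans 147 kb (chr5:90759360-90905938). The promoters of the 3 neutrophil-attracting chemokine genes of this run, and of the interleukin 1 genes Il1a and Il1b, are shown because these genes ran high in the same cells. Each is the 250 bases before the RefSeq start in GRCm38.p6, the same coordinates as mm10, read 5′ to 3′ on the gene's strand, with the match to the NF-kappaB motif in capitals. The order is Cxcl3 at chr5:90785851-90786100 (plus strand), Cxcl2 at chr5:90903649-90903898 (plus), Cxcl1 at chr5:90890995-90891244 (plus), Il1a at chr2:129309973-129310222 (minus) and Il1b at chr2:129371140-129371389 (minus).
Cxcl3: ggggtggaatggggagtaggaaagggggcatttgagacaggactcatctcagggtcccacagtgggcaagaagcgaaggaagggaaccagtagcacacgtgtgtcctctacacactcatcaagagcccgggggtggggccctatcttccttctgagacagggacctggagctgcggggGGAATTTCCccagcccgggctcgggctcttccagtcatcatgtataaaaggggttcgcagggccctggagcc
Cxcl2: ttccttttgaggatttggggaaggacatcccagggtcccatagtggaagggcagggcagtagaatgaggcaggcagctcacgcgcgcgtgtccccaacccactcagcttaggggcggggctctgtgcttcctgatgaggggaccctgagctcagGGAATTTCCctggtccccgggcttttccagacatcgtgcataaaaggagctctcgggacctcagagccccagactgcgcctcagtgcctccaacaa
Cxcl1: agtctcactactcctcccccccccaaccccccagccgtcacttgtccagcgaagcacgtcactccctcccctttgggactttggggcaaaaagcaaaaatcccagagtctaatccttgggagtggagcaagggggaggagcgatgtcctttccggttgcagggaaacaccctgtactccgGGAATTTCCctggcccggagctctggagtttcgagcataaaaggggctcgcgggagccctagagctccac
Il1a: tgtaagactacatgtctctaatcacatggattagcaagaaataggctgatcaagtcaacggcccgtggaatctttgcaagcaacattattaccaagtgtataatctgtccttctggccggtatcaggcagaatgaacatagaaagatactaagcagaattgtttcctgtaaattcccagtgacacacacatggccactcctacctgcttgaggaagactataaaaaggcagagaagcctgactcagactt
Il1b: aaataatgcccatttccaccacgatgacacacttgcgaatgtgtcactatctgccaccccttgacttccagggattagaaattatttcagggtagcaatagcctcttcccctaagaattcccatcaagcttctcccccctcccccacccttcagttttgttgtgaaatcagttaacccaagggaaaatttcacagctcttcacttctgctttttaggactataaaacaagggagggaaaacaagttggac
The motif searched was GGANTTTCC on either strand, which 1.07% of 32851 RefSeq mouse promoter windows held. The Cxcl3, Cxcl2 and Cxcl1 windows each held GGAATTTCC, starting 72, 96 and 70 bases before the RefSeq start. The Cxcl2 start in GENCODE, the source of the gene positions, lies inside the Cxcl2 window and nearer the motif. The Il1a and Il1b windows did not hold these letters. TATAAA, the TATA box, stood 30 bases before the start of Cxcl3, 32 before Il1a and 31 before Il1b, and 12.4% of all windows held it. Il1a also held TGACTCA, a match to the AP-1 motif TGANTCA, 12 bases before its start, and 6.75% of windows held that motif. The C/EBP motif TTGCNNAA (9.56% of windows) and the cyclic AMP response element TGACGTCA (1.55%) were in none of the 5. A match describes letters only. Il10 was not matched in the promoter table.

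Within the set, Cxcl3 ranged from 2 to 135 UMIs per cell with a median of 8.5 (quartiles 4 and 15.75). These values chose the cells and are given as a description. Just inside the limit, 34 cells held 2 UMIs and 26 held 3. Just outside it, 87 cells that met every other limit held 1 UMI and 592 held 0. Cells far above the limit were common: 136 held at least 10 and 24 at least 40. At the other limits, 34 members held 1 UMI of Gpnmb, 68 held 1 of Mrc1, 24 held 2 of Plac8, and 25 had a macrophage sum of exactly 3.

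**Figure D1:**
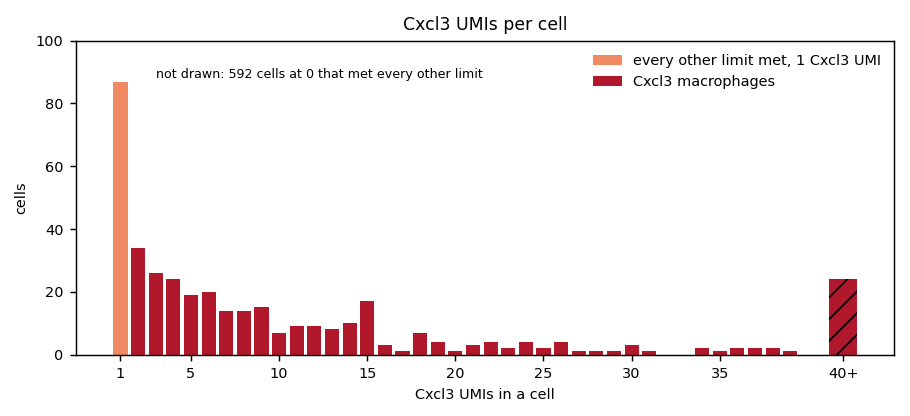
Number of injured cells (vertical axis) by Cxcl3 UMIs in the cell (horizontal axis), among cells that met every other limit; the last bar collects cells with 40 or more. The bar at 1 UMI holds the 87 cells just outside the gate, the 302 members run from 2 UMIs upward with a long tail, and 592 cells at 0 are not drawn.

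Cxcl3 was not confined to the gate. Of 2800 kept injured cells with the macrophage sum, 964 held at least 2 Cxcl3 UMIs, and the limits on other genes removed the remainder: 415 cells were over the Mrc1 limit, 219 over the Plac8 limit and 132 over the Gpnmb limit, with some over several. Cells that missed by Mrc1 alone (269 cells) held Cxcl3 at 1681 CPM (a gene's UMIs per 1000000 UMIs, both summed over the cells of a group), against 1909 in the members. Those that missed by Gpnmb alone (86 cells) held 1684 CPM and those that missed by Plac8 alone (109 cells) 1492 CPM. In these neighbours the neutrophil chemokine Cxcl2 was near the member level of 26552 CPM, at 21340, 26115 and 22152 CPM in the same order. Il1a was at 126, 185 and 185 CPM, under the members' 262. Other markers ran above the members in the cells over the Mrc1 limit: Il10 was at 358 against 286 CPM, Ccl24 at 305 against 225 and Pf4 at 11301 against 4907.

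In the uninjured library 0 of 5385 kept cells met the gates, which allows a share of up to 0.0557% (3 cells of the total). All of its kept cells together held 2 Cxcl3 UMIs. Of 70 uninjured macrophages, defined by the same macrophage sum and the Cdh5, Pdgfra and S100a8 limits, 0 held 2 Cxcl3 UMIs, which allows a share of up to 4.29%.

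The label was compared with markers that the gates did not use. The 17 other macrophage identity genes were all detected and summed to 27642 CPM (27427 to 27858), inside the range of the compared groups (21351 to 36093 CPM) and far above the 399 CPM of injured endothelial cells. Il1a, Il1b, Il10, Cxcl2 and Ccl24, the markers named for the set beside Cxcl3, were detected. Neutrophil markers without S100a8 summed to 122 CPM, against 87.4 to 260 CPM in the compared groups of the injured library. Of these 14 genes 11 were detected, among them S100a9 (72 UMIs) and Mmp8 (55 UMIs), and 146 members held a UMI of the list. Ly6g, Ngp and Camp were at 0 UMIs, but Ly6g had only 4 in all kept injured cells. T and NK cell markers summed to 2.18 CPM, B cell markers to 10.0 CPM and mast cell markers to 0. Endothelial markers without Cdh5 reached 596 CPM, of which 508 were Cd36, a fatty acid transporter that macrophages also use, against 10735 CPM in injured endothelial cells. Fibro-adipogenic progenitor markers without Pdgfra summed to 218 CPM and muscle fibre markers to 183 CPM. Erythroid markers reached 2273 CPM, and 53.7% of the members' Hbb-bs UMIs came from 1 cell.

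The members were set beside 5 groups of cells. In the injured library these were 679 Cxcl3-low macrophages (0 or 1 Cxcl3 UMI, every other limit met), 89 Gpnmb macrophages (at least 2 Gpnmb UMIs), 344 Mrc1 macrophages (at least 2 Mrc1 UMIs) and 434 Plac8 monocytes (at least 3 Plac8 UMIs), the last 3 with 0 or 1 Cxcl3 UMI and the other limits kept. The fifth group was the 70 uninjured macrophages. The members summed to 2297437 UMIs, with a median of 7236.5 per cell, and the other injured groups had medians of 6727, 7732, 8009 and 6038.5 in the order given. Uninjured macrophages were shallower, at a median of 3879. Shares of cells with a UMI are therefore given after thinning each cell to 3000 UMIs. Beside them stands the share in 409 injured endothelial cells (median 6409 UMIs), as a measure of free RNA. These endothelial cells were chosen to hold 0 UMIs of Csf1r, Cd68 and Adgre1, so they may understate it. The gates were applied to these same cells, so the levels that follow describe the set.

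Cxcl2, which lies at chr5:90903871-90905938 and draws neutrophils, was the second most abundant gene of the members by UMIs, after the ferritin light chain gene Ftl1. It made up 2.66% of their UMIs. Its level was 26552 CPM (26342 to 26763) in the members, 14467 in Cxcl3-low macrophages, 17967 in Gpnmb macrophages, 11936 in Mrc1 macrophages, 10568 in Plac8 monocytes and 872 in uninjured macrophages. After thinning, the median member held 78 UMIs (quartiles 57 and 106), against 38, 57, 29, 20.5 and 0. The log2 ratio was 0.88 over the Cxcl3-low set and 4.93 over uninjured macrophages. Every member held Cxcl2, as did 48.9% of thinned endothelial cells (74.3% unthinned) at 375 CPM.

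Cxcl1, a close relative with the same receptor, was at 3203 CPM in the members, 1462 in Cxcl3-low, 2118 in Gpnmb, 1562 in Mrc1 and 781 in Plac8 cells. Uninjured macrophages held 3 UMIs of it, so the members were 332-fold higher with an interval of 113 to 1609. Cxcl1 was not a macrophage property alone: injured connective tissue cells held 2145 CPM. Cxcl5, the outermost gene of the run, was nearly silent, at 5 UMIs in the members against 1478 CPM in connective tissue cells.

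Pf4, the gene of platelet factor 4 and the direct neighbour of Cxcl3 on the chromosome (chr5:90772435-90773383), separated the members from the Cxcl3-low set more than Cxcl2 did. It was at 4907 CPM (4817 to 4999) in members, 1521 in Cxcl3-low, 1615 in Gpnmb, 5166 in Mrc1, 460 in Plac8 and 3010 in uninjured macrophages. Thinned shares of cells with Pf4 were 73.5%, 45.8%, 51.7%, 73.8%, 20.7% and 64.7%, and 14.2% in endothelial cells. Members and Mrc1 macrophages were thus close in Pf4 (log2 ratio -0.07) and both stood above the other injured groups. Ppbp, another platelet chemokine gene beside Pf4, was at 328 CPM in members, 106 in Cxcl3-low, 647 in Mrc1 and 17.0 in Plac8 cells, with 17.9% of thinned members holding it. Against Gpnmb macrophages (462 CPM) its log2 ratio was -0.50, or 0.86 with the highest cell of each set left out. Platelet markers other than these summed to 1 UMI in the members, with 7 of 8 genes at 0.

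The CC chemokines for monocytes were high in every injured group. Ccl2 was at 7902 CPM in members, 5644 in Cxcl3-low, 7752 in Gpnmb, 5140 in Mrc1, 3748 in Plac8 and 435 in uninjured macrophages. Ccl7, its neighbour in a run of genes of 81.2 kb that also holds Ccl8, Ccl11 and Ccl12 (chr11:82035571-82116799), followed with 8072, 4885, 8139, 6126, 2494 and 335 CPM. Ccl12 split the groups differently: it was at 503 CPM in members and 682 in Mrc1 macrophages, but 221, 194 and 208 in Cxcl3-low, Gpnmb and Plac8 cells. Ccl6 and Ccl9 reached 8423 and 4165 CPM, near the Mrc1 levels of 8907 and 4404. Ccl24, an eosinophil attractant named as a marker of the set (chr5:135569937-135573049, minus strand), was at 225 CPM (206 to 245) in members and 284 in Mrc1 macrophages, against 91.9 in Cxcl3-low, 82.1 in Gpnmb and 45.3 in Plac8 cells. Uninjured macrophages held more, 560 CPM. Only 80 members carried Ccl24, 18.9% after thinning against 0.733% of endothelial cells, and 1 cell held 18.6% of its UMIs. Some chemokines that attract T cells were close to absent: Ccl5 had 2 UMIs in members and 125 in the Cxcl3-low set, Ccl22 had 2 and 22, and Ccl17 had 0 and 116, at least 18.4-fold lower. Others were present. Cxcl10, an interferon-induced chemokine, was at 95.8 CPM in members, 73.3 in Cxcl3-low, 44.6 in Gpnmb, 37.2 in Mrc1 and 146 in Plac8 cells. Cxcl16 was at 134 CPM in members. When injured cells were grouped by expression, 1 cluster was led by genes that include Ccl22, Ccr7, Cd209a and Ccl17. It held 49 Cxcl3-low cells and 0 members. The part of these cells in the Ccl5, Ccl17 and Ccl22 differences was not tested.

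Il1a was the 1 gene of the interleukin 1 family list at least 2-fold higher in members than in each of the 4 other injured groups. It lies at chr2:129299610-129309972 and encodes an alarmin released by damaged and activated cells. Its level was 262 CPM (242 to 284) in members, 98.1 in Cxcl3-low, 57.6 in Gpnmb, 48.8 in Mrc1 and 65.9 in Plac8 cells, with log2 ratios of 1.42, 2.19, 2.43 and 1.99. Of the members 51.3% held a UMI unthinned and 33.1% thinned, against 17.8%, 11.2%, 11.0% and 10.1% of the other injured groups and 1.71% of endothelial cells. Uninjured macrophages held 2 UMIs (40.8-fold lower, 11.2 to 337). Il1b (chr2:129364570-129371139), the secreted ligand cut by caspase 1, was more widely spread: 6187 CPM in members, 4065 in Cxcl3-low, 2266 in Gpnmb, 2650 in Mrc1 and 4967 in Plac8 cells. Plac8 monocytes were thus close to members in Il1b (log2 ratio 0.32) and far below in Il1a. The median thinned member held 16.5 Il1b UMIs, against 8, 3, 2 and 11. Il1rn, the receptor antagonist, was at 471 CPM in members, 296 in Cxcl3-low and 598 in Gpnmb macrophages. Nlrp3, the inflammasome sensor, was at 353 CPM in members and at 197 to 276 in the other injured groups. Il18, a member of the family made as a stored precursor, ran the other way, at 18.3 CPM in members against 48.3 in uninjured macrophages.

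Il10, the anti-inflammatory cytokine (chr1:131019845-131024974), was present in the same cells. It was at 286 CPM (265 to 309) in members, 180 in Cxcl3-low, 173 in Gpnmb, 194 in Mrc1 and 137 in Plac8 cells, so that no injured group reached a 2-fold difference except Plac8 (log2 ratio 1.06). A UMI was seen in 32.1% of thinned members (42.4% unthinned), against 20.5%, 23.6%, 24.1% and 17.1% of the other groups and 0.733% of endothelial cells (2.44% unthinned). Uninjured macrophages held 1 Il10 UMI, and the ratio was 88.8 with an interval of 15.9 to 3514. Tnf, the acute inflammatory cytokine, was at 646 CPM in members and 664 in Gpnmb macrophages, but 454, 310 and 304 in Cxcl3-low, Mrc1 and Plac8 cells and 67.6 in uninjured macrophages. Osm, an interleukin 6 family cytokine of myeloid cells, was highest of the groups in members, at 573 CPM against 260 to 415 in the other injured groups. Il6 was at 67.9 CPM in members, 33.9 in Cxcl3-low, 23.0 in Gpnmb, 19.0 in Mrc1 and 67.3 in Plac8 cells. Endothelial cells held 62.2 CPM of it. Ptgs2, the inducible cyclooxygenase, was at 723 CPM in members and 308 to 490 in the other injured groups.

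**Figure D2:**
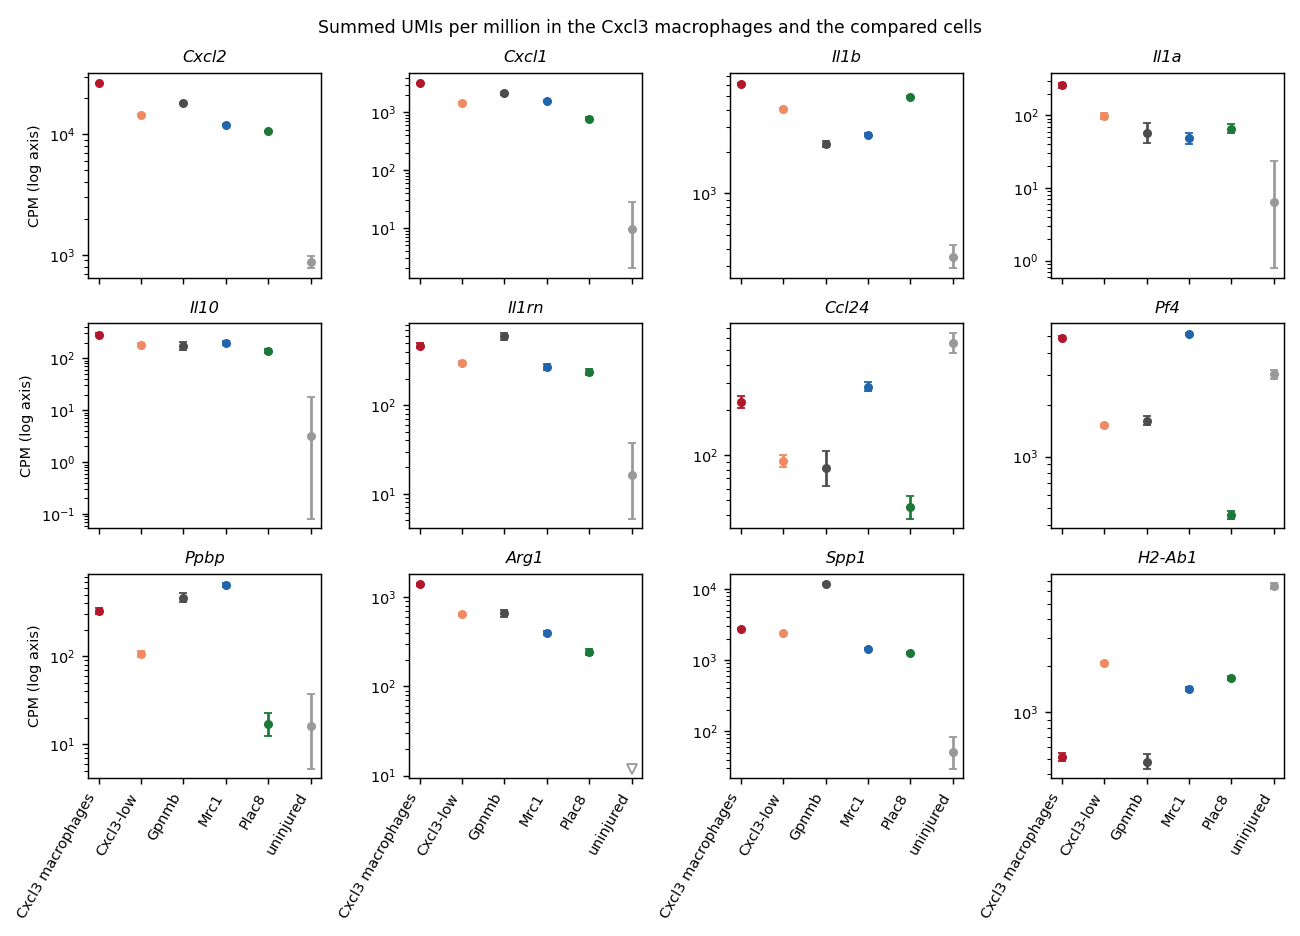
Levels in CPM on a log axis for 12 genes in the Cxcl3 macrophages and the 5 compared groups; points are levels from summed UMIs, bars are 95% Poisson intervals for counting error, and open triangles mark the upper limit where a group held 0 UMIs. Il1a stands at 262 CPM in the members against 48.8 to 98.1 CPM in the other injured groups, while H2-Ab1 stands at 517 CPM against 2083 CPM in the Cxcl3-low macrophages.

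Arg1, the enzyme that turns arginine into ornithine and is often taken as a mark of repair macrophages, was at 1392 CPM (1345 to 1442) in members. It was at 642 in Cxcl3-low, 659 in Gpnmb, 400 in Mrc1 and 241 CPM in Plac8 cells, and uninjured macrophages held 0 UMIs, at least 144-fold lower against a floor of 3 counts over the group. Arg1 was seen in 63.9% of the members. Pdpn, a membrane mucin that binds the platelet receptor Clec1b, was at 382 CPM against 184, 258, 180 and 58.1 in the same order. Hilpda, a lipid droplet protein induced by low oxygen, was at 595 CPM and Slc7a11, the cystine transporter, at 415 CPM. In Mrc1 macrophages these were at 266 and 115 CPM. Thbs1, a matrix glycoprotein that activates TGF-beta, was at 1443 CPM in members, near Gpnmb (1260) and Plac8 cells (1267) and above Cxcl3-low (832) and Mrc1 macrophages (548).

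The Cxcl3-low macrophages differed from the members by the Cxcl3 limit alone. At least 2-fold higher in members were 74 of 8577 genes with 20 or more UMIs in both groups together (0.863%), and at least 2-fold lower were 333 (3.88%), with a median log2 ratio over all genes of -0.06. The gates used these cells, so the counts describe the 2 groups. Of 9 CXC chemokine genes 3 were 2-fold higher and 1 lower (median 0.71), and of 12 CC chemokine genes 2 were higher and 3 lower (0.44). Of 21 other cytokine genes 4 were higher and 3 lower (0.50). No gene of 22 in the NF-kappaB and feedback list was 2-fold different (0.23), nor any of 30 glycolysis and hypoxia genes (0.28), 30 transcription factors (0.04) or 17 macrophage identity genes (-0.05).

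Of 12 MHC class II genes, whose products present peptides to helper T cells, 8 were at least 2-fold lower in members and none 2-fold higher (median -1.59). H2-Ab1 was at 517 CPM (488 to 547) against 2083, 4.03-fold lower (3.79 to 4.28). Cd74, the invariant chain, was at 1385 against 4452 CPM, H2-Aa at 439 against 1764 and H2-DMb1, which loads peptides, at 61.4 against 287. The sums hide a split between cells. For H2-Aa, H2-Ab1, H2-Eb1 and Cd74 together the median member held 1 UMI and the median Cxcl3-low cell 2. Of the members 259 held fewer than 20. In members 17 cells with 100 or more held 4549 of these 6067 UMIs, and they were 5.63% of the set against 16.6% (113 cells) of the Cxcl3-low set. Dendritic cell markers moved with this difference. They summed to 10.0 CPM in members and 100 in the Cxcl3-low set, and 19 members and 100 Cxcl3-low cells held any such UMI. Without those cells, an alternative chosen after the data were seen, the MHC class II median was -1.15 and H2-Ab1 -1.37. T and NK cell markers were also higher in the Cxcl3-low set (55.5 against 2.18 CPM), as were muscle fibre markers (701 against 183 CPM); their part in the other differences was not tested. Cd209a, a lectin of monocyte-derived dendritic cells, had 5 UMIs in the members and 66.8 CPM in the Cxcl3-low set.

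Against Gpnmb macrophages, 359 of 6792 genes were at least 2-fold higher in members (5.29%) and 263 lower (3.87%), with an overall median of 0.01. The repair and lipid-associated list, which holds genes of lipid uptake and lysosomal clearance, had 10 of 21 genes lower and 0 higher (median -0.99). The gates that split these groups use Gpnmb, and 1 gate gene of this list was left out. Spp1, the matrix cytokine osteopontin, was at 2796 CPM in members and 11943 in Gpnmb macrophages. Fabp5, a fatty acid carrier, was at 1300 against 3552, the tetraspanins Cd9 and Cd63 at 209 against 576 and 669 against 1412, and Lgals3, a galectin of phagocytes, at 4980 against 10214 CPM. Gdf15, a stress cytokine, was at 21.3 against 181 CPM. Of 27 lysosome genes 5 were lower and 1 higher (median -0.52). MHC class II genes did not separate these groups: 0 of 10 were 2-fold different, and H2-Ab1 was at 517 and 484 CPM. The members were higher in 3 of 7 CXC chemokine genes (0.60), 3 of 9 CC chemokine genes (0.97) and 3 of 11 interleukin 1 family genes (0.35), with none lower. The CC chemokine median was 0.28 with the highest cell of each gene left out, and Ccl8, 1 of these 3 CC genes, had 84.8% of its member UMIs in 1 cell. Ccl2, Ccl7 and Tnf were within 0.04 log2 units of equal.

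Against Mrc1 macrophages, 151 of 8095 genes were at least 2-fold higher in members (1.87%) and 466 lower (5.76%), with an overall median of -0.14. The alternative activation list had 9 of 12 genes lower in members and 1 higher (median -2.18, or -1.03 with the highest cell of each gene left out), and the resident macrophage list 14 of 19 lower and 0 higher (-1.87). The gates use Mrc1, a gene of that kind. C1qa, a subunit of the first complement component, was at 411 against 1012 CPM, Folr2, a folate receptor of tissue macrophages, at 32.6 against 138, and Sepp1, selenoprotein P, at 215 against 677. Lyve1 had 0 UMIs in members and 118 in Mrc1 macrophages, at least 31.7-fold lower. MHC class II genes were lower here as well, 7 of 11 (-1.45), and dendritic cell markers summed to 10.0 CPM in members and 90.9 in Mrc1 macrophages; their part in this was not tested. Ccl8 was at 34.4 against 390 CPM, with 84.8% of the member UMIs in 1 cell. The members were higher in 8 of 19 other cytokine genes, with 0 lower (0.56), among them Tnf and Osm (log2 ratios 1.06 and 1.14). F10, the gene of coagulation factor X, was at 312 against 80.4 CPM.

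Against Plac8 monocytes, 341 of 7931 genes were at least 2-fold higher in members (4.3%) and 537 lower (6.77%), with a median of 0.00. In the inflammatory monocyte list, 9 of 19 genes were lower and 1 higher (median -0.76). The gates that split these groups use Plac8, and 1 gate gene of this list was left out. Ly6c2, the monocyte surface antigen, was at 100 CPM against 669. Hp, haptoglobin, was at 45.7 against 471 CPM. Interferon-stimulated genes were lower in 15 of 23 with 0 higher (-1.53). Isg15 was at 92.3 against 266 CPM, Irf7, the regulator of type I interferon genes, at 41.8 against 151, and Ifit1 at 2.18 against 23.7. Repair and lipid-associated genes were higher in 12 of 20 with 0 lower (1.09). Hmox1, the haem-degrading enzyme, was at 618 against 172 CPM and Cd36 at 508 against 79.3. C1qa was at 411 against 141 CPM. MHC class II genes were lower in 8 of 12 (-1.73). Dendritic cell markers were at 154 CPM in Plac8 monocytes and 10.0 in members, and their part was not tested.

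Against uninjured macrophages, 770 of 6769 genes were at least 2-fold higher in members (11.4%) and 1279 lower (18.9%), with a median of -0.05. Sex, depth and library differ along with injury here. So do the gates, since the limits on Cxcl3, Gpnmb, Mrc1 and Plac8 were set for the members alone. In the NF-kappaB and feedback list 17 of 22 genes were higher and 1 lower (1.56). Nfkbia, the inhibitor that NF-kappaB induces, was at 5049 against 541 CPM, and Tnfaip3, a deubiquitinase of the same loop, at 442 against 70.8. The lower gene was among these feedback genes too: Tnip3 was at 101 against 229 CPM. Glycolysis and hypoxia genes were higher in 17 of 27 with 0 lower (1.29), among them Pkm at 1359 against 277 and Hif1a at 251 against 48.3 CPM. Matrix and fibrinolysis genes were higher in 16 of 23 and lower in 4 (1.77). Chil3, a chitinase-like protein of inflammatory myeloid cells, was at 936 against 12.9 CPM. Clec4d, a C-type lectin receptor, was at 956 CPM against 0 UMIs, at least 99.0-fold higher.

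Genes of resident macrophages were lower in 19 of 21 (median -4.78). The gates kept cells rich in Mrc1, a gene of that kind, out of the members but not out of the uninjured group. The part of this limit was not tested. Retnla was at 8.27 CPM against 17590, 2127-fold lower (1361 to 3536), and 89.5% of the 19 member UMIs came from 1 cell. Folr2 was at 32.6 against 895 CPM, Cd163, the haemoglobin scavenger receptor, at 3 UMIs against 196 CPM, and C1qa at 411 against 4295. Cx3cr1, the fractalkine receptor, was at 7.40 against 142 CPM. MHC class II genes were lower in 7 of 11 (-3.36), with H2-Ab1 at 6487 CPM in uninjured macrophages. Dendritic cell markers (283 CPM) and B cell markers (351 CPM) were also higher there than in members (10.0 CPM each), with the B cell genes Ms4a1, Cd79a and Pax5 at 0 in the uninjured group; their part was not tested. Connective tissue RNA was higher in the uninjured group: fibro-adipogenic progenitor markers summed to 4787 against 218 CPM, and tenocyte markers to 966 CPM. An alternative chosen after the data were seen left out the uninjured cells holding 5 or more UMIs of the progenitor list (61 cells stayed). Of the named genes at least 2-fold different, 37 still had 20 or more UMIs in both groups together. All 37 kept their sign and a 2-fold difference. Named genes that fell under 20 UMIs were not counted, so genes carried mainly by the cells left out could drop from this number. The resident median was then -4.83 and Retnla -11.01.

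**Figure D3:**
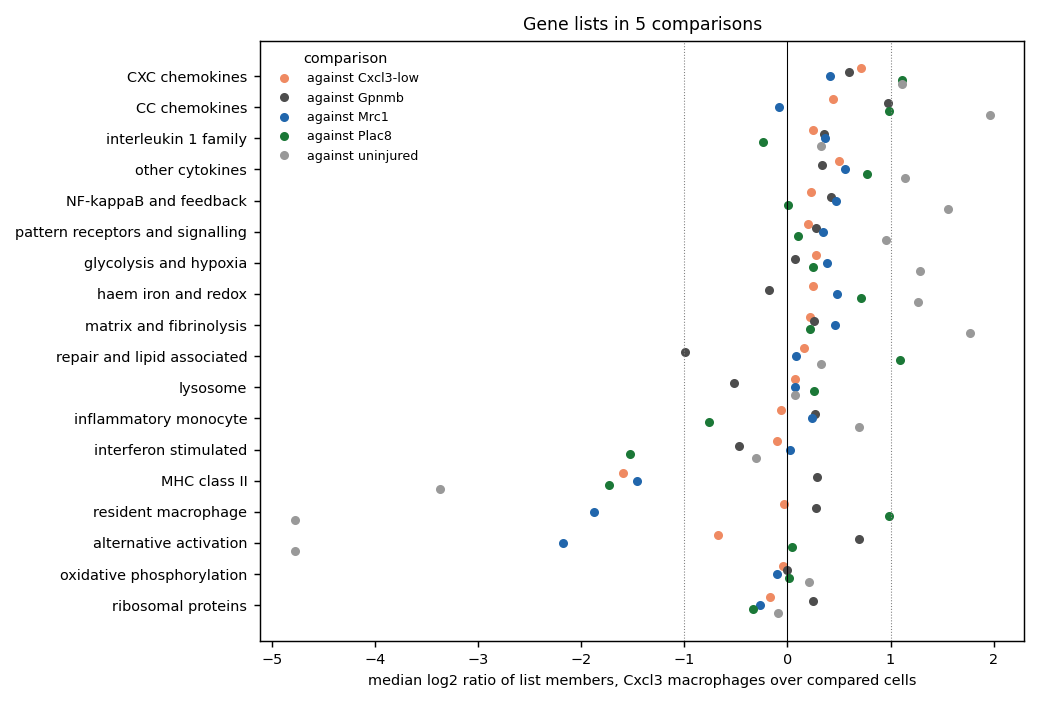
Median log2 ratio of the measured genes of each list (horizontal axis), Cxcl3 macrophages over each of the 5 compared groups (colours); dotted lines mark 2-fold. MHC class II stands between -1.45 and -1.73 against the Cxcl3-low, Mrc1 and Plac8 groups, at 0.29 against Gpnmb macrophages and at -3.36 against uninjured macrophages, while oxidative phosphorylation and ribosomal protein genes stay near 0.

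To show how other genes varied with the gene that chose the cells, the members and the Cxcl3-low macrophages together were divided by Cxcl3 UMIs into 0 (592 cells), 1 (87), 2 to 4 (84), 5 to 9 (82) and 10 or more (136). Median depth was alike, between 6670 and 7418.5 UMIs. Pf4 was higher in each successive class, at 1394, 2364, 2769, 4366 and 6446 CPM, 4.62-fold from the first to the last (4.47 to 4.79). Il1a followed, at 93.4, 129, 173, 229 and 333 CPM, 3.57-fold (3.08 to 4.13). Cxcl2 stood at 13620, 20079, 21926, 27361 and 28756 CPM, with its largest step between 0 and 1 UMI. Of 720 genes tabulated, 16 were higher in every successive class and 18 lower. The former include Cxcl3, whose order the classes fix, and also Pdpn, Slc7a11, Thbs1, Il1rn and Tnf. The genes tabulated were those of the lists, the gates and the named genes. Some were named because they differed between these same cells. The share over all genes was not computed, so the counts describe this choice of genes.

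Other markers of the set had no such order. Il1b peaked in the class of 5 to 9, at 6788 CPM, and was at 6269 in the last. Il10 stood at 175, 216, 206, 324 and 311 CPM. Arg1 was at 623, 766, 1162, 781 and 1872 CPM. Among the genes lower in every class were Lsp1, a leukocyte actin-binding protein, from 332 to 91.4 CPM, and H2-DMa, from 206 to 57.8. H2-Ab1 was at 2216, 1197, 586, 622 and 418 CPM.

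**Figure D4:**
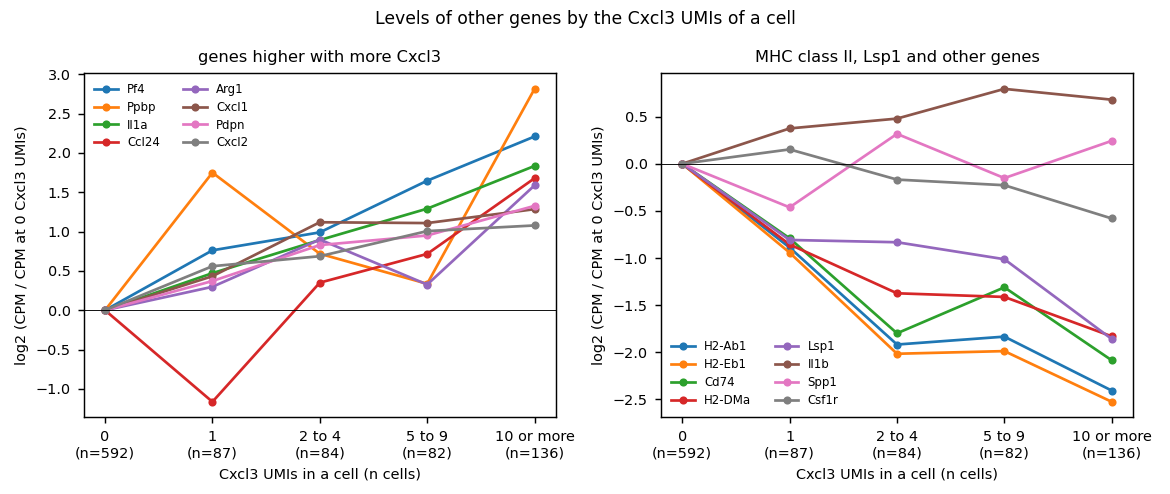
Difference in log2 CPM from the cells at 0 Cxcl3 UMIs (vertical axis) by Cxcl3 class (horizontal axis) for selected genes in the macrophages that met every other limit. Pf4 climbs through all 5 classes to 4.62-fold, Il1a to 3.57-fold and Cxcl2 to 2.11-fold, while H2-Ab1 runs downward from 2216 to 418 CPM.

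The members did not form a cluster of their own. The kept injured cells were grouped by expression, without the genes of the gates, into 20 clusters. Members lay in 12 of them, and in none were they more than 18.0% of the cells. Cluster 1, led by Csf3, Areg, Cxcl3, Il10, Arg1 and Ccl24, held 116 of them. Cluster 4, led by Gpnmb, Syngr1 and Spp1, held 64, cluster 5, led by Mmp12, Clec4b1 and Cd74, held 40, and cluster 7, led by Dmkn, Trem1 and Ifitm6, held 29. Cluster 2, with haemoglobin genes, Cbr2 and Folr2 in front, held 24, and cluster 6, with Rsad2, Ifi47 and Irf7, held 17. No cluster was given a cell type name.

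Inside the set these clusters carried different programmes. Members in clusters 1 and 4 were high in Il1a (286 and 351 CPM), Il10 (389 and 321), Pf4 (6114 and 6486) and Arg1 (1675 and 2050). Those in cluster 2 kept Pf4 (7494 CPM) and Arg1 (1655) but held little Il1a (25.9), Il10 (20.7) or Il1b (1293). Members of cluster 7 had the highest Il1b of these 5 clusters, 8459 CPM, with Ccl24 at 414, Vcan, a matrix proteoglycan of monocytes, at 668, and H2-Ab1 at 1 UMI. Members of cluster 5 held 891 of the set's 1188 H2-Ab1 UMIs. H2-Ab1 was at 2714 CPM there, against 5.52 to 122 in members of clusters 1, 2, 4 and 7, with Ccl24 at 0 and Pf4 at 963. Levels in members of the remaining clusters are not given. Of the 17 members with 100 or more MHC class II UMIs, 12 were in cluster 5. Apart from the gate genes, the genes that led these clusters could enter their formation, so these values describe the spread.

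**Figure D5:**
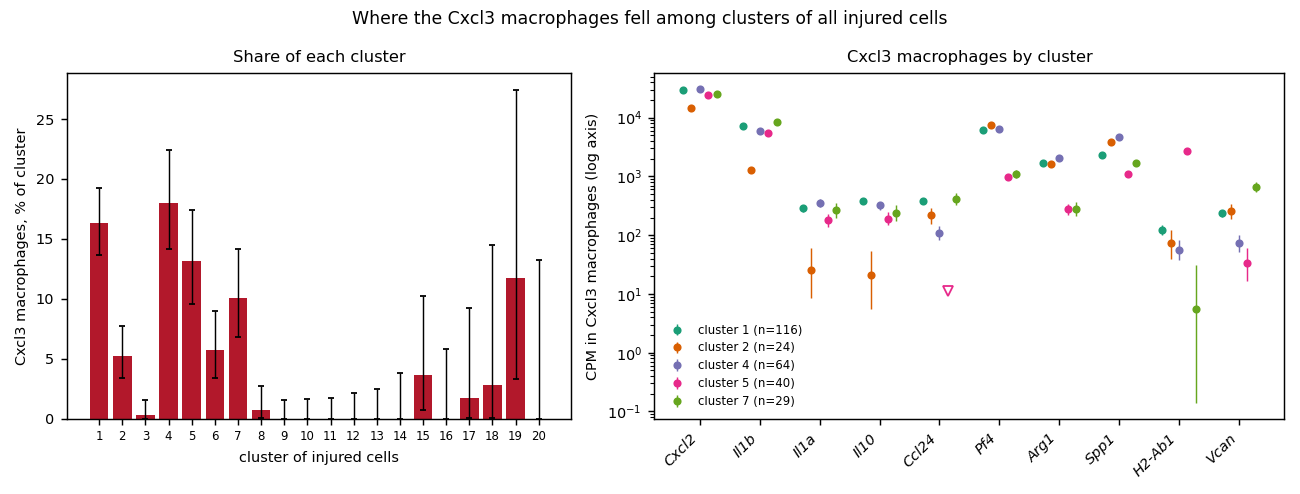
Left, share of each cluster's cells that were Cxcl3 macrophages, in percent; right, levels in CPM on a log axis of 10 genes in the members of clusters 1, 2, 4, 5 and 7. Members made up 16.3% of cluster 1, 18.0% of cluster 4, 13.1% of cluster 5 and 10.1% of cluster 7. Among the clusters drawn on the right, H2-Ab1 was highest in the members of cluster 5.

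Across the 302 members thinned to equal depth, pairs of genes varied together to different degrees. Spearman's rho was 0.77 for Ccl7 and Ccl2, 0.61 for H2-Ab1 and Cd74, 0.48 for Cxcl2 and Il1b, 0.43 for Arg1 and Pf4, and 0.35 for Pf4 and Ppbp and for Il1a and Il1b. Cxcl3 itself stood at 0.30 with Pf4 and 0.28 with Cxcl2. Lying in the same run of genes did not go with a high rho throughout: it was -0.05 for Cxcl3 and Cxcl1, 0.18 for Cxcl2 and Cxcl1, and -0.003 for Cxcl2 and Pf4. Il10 stood near 0 with the others, at 0.02 with Il1a, 0.02 with Cxcl3 and 0.08 with Il1b. The cells share 1 library, and the gate on Cxcl3 shortens its range.

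The members held 5.94% of the UMIs of kept injured cells. They held 21.5% of that library's Il1a, 18.6% of its Arg1, 15.6% of its Cxcl2, 14.2% of its Il1b, 657 of its 5073 Il10 UMIs, 12.3% of its Ccl24 and 11.7% of its Pf4. Their share of Il6 was 6.89% and of H2-Ab1 3.66%. The base of 5.94% counts all kept injured cells, not macrophages alone. Of genes common to macrophages, the members held 10.7% of Lyz2, 9.41% of Tyrobp, 11.1% of C5ar1 and 13.8% of Cd14. The shares of Il10, Ccl24 and Pf4 lay within this range.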

How the data were processed

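RNA of 2 libraries of tibialis anterior cells, 1 uninjured and 1 collected 24 hours after injury, was captured with the 10X Single Cell 3' v2 kit, per the labels' protocols. The authors deposited a matrix of raw UMI counts per gene and barcode for each library; Cell Ranger 2.1.1 and the build mm10 are named in the submitters' processing notes, with annotation release and cell calling not given in the sources used here. All values here were computed from these counts with Python 3.11.15, scipy 1.17.1 and scanpy 1.11.5. Barcodes with at least 200 genes and at most 20% mitochondrial UMIs were kept. A doublet caller marked 1 barcode per library on its automatic threshold, so doublets were not removed, and leaving out the highest doublet scores (0.8% of barcodes per 1000) was an alternative.

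UMIs were summed over the cells of each group and scaled to a total of 1000000 (CPM) with exact Poisson intervals; ratios have exact conditional binomial intervals and shares Clopper-Pearson intervals, all at 95% and for counting error only. For a share of 0 the limit given is 3 counts of the total. A lower count under 3 UMIs was raised to 3 for log2 ratios, 2-fold calls, list medians and the bounds given at 0 UMIs. Fold values printed with an interval were left without this floor. Genes with at least 20 UMIs in the 2 groups together were counted as higher or lower when at least 2-fold different; no test was possible with 1 library per condition. For shares of cells with a UMI, each cell was thinned to 3000 UMIs. Kept injured cells were grouped by Leiden clustering (2000 variable genes without the gate genes, 30 components, 15 neighbours, resolution 1, seed 0). The counting and intervals were tested on simulated data.

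Any gene of 42 lists (675 genes, 670 in the files) could be named. Besides these, the rule took for each comparison the 15 genes with the highest and the 15 with the lowest ratio. It drew on genes with at least 50 UMIs in both groups together and 100 CPM in the higher one, without the gate and mitochondrial genes. The members and lists were chosen with earlier results of these data known. Gene positions are from GENCODE for GRCm38 and promoters from RefSeq.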

Additional observations from a re-analysis of the deposited data

How the results depend on the processing

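No paired analysis was possible because each condition had 1 library, and for the same reason no replicate could be left out. Over 13 settings, 91 recomputed shares and gene counts stayed near the value reported (gene counts within 1.5 times, shares within their interval) and 19 did not. The share of injured cells in the set was 6.06% (268 cells) with at least 3 Cxcl3 UMIs, 4.93% (218) with at least 5, and 5.65% (250) with a macrophage sum of at least 5. With a minimum of 5 UMIs per gene in place of 20, genes at least 2-fold higher numbered 353 against Cxcl3-low, 331 against Mrc1 and 674 against Plac8 cells. Those lower numbered 769 against Gpnmb, 824 against Mrc1 and 2693 against uninjured cells. With a minimum of 100 UMIs the numbers higher and lower were 15 and 61 against Cxcl3-low, 73 and 44 against Gpnmb, 49 and 73 against Mrc1, and 111 and 187 against Plac8 cells, with 257 lower against uninjured macrophages. Thinned cells gave 628 genes lower against uninjured macrophages. These settings change how many genes are tested. Named genes at least 2-fold different were counted once per comparison, so that a gene can count several times. Entries with fewer UMIs in a setting than its minimum per gene were not counted, so the totals differ between settings. Of 181 such entries, 181 kept their sign with the Cxcl3 limit at 3 or 5. With a macrophage sum of at least 5, 165 of 176 such entries and 18 of 20 such list medians stayed 2-fold different. Without dendritic-marker cells, tried against the Cxcl3-low set alone, 18 of 23 genes did. Only 2 named genes changed sign after a call: Hbb-bt against Mrc1 macrophages (-1.92) was at 3.75 without likely doublets and 2.40 without the highest cell, and Ifitm1 against Cxcl3-low (-2.36) was at 0.16 without cells holding dendritic markers. That last alternative, the highest cell left out and the uninjured cells without connective tissue RNA were chosen after seeing the data. Without dendritic-marker cells (283 members, 579 Cxcl3-low) Pf4 was at 1.59, Il1a at 1.36 and Arg1 at 1.01, and 74 genes were higher and 270 lower. Precision is limited by 70 uninjured macrophages and 310623 UMIs, where several genes named here had 0 to 3 UMIs.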

Other observations

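Growth factor genes of the Cxcl3 macrophages gave a mixed picture. Areg, an epidermal growth factor receptor ligand known for acting on muscle progenitors, was at 123 CPM in members, 145 in Mrc1 macrophages, 63.5 in Cxcl3-low macrophages and 38.6 in uninjured macrophages. Csf3, the granulocyte growth factor, was at 67.0 CPM in members, above the 17.3 to 43.0 CPM of the other injured groups, and uninjured macrophages held 0 UMIs. Vegfa, the endothelial growth factor, was at 43.5 CPM in members and 41.4 in Plac8 monocytes. Igf1, the growth factor tied to muscle regeneration, was at 30.5 CPM in members, 31.0 in Cxcl3-low, 28.8 in Mrc1, 164 in Gpnmb and 270 in uninjured macrophages, and 3.19 in Plac8 monocytes.

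Genes of cell division were scarce: Mki67 had 12 UMIs in all 302 members and Top2a had 3. Of 23 haem, iron and redox genes, 5 were at least 2-fold higher in members than in Mrc1 macrophages and 2 lower (median 0.48). Over all genes of that comparison 1.87% were higher and 5.76% lower (median -0.14). Higher and lower genes of the list numbered 0 and 1 of 23 against Cxcl3-low (median 0.25) and 2 and 1 of 22 against Gpnmb macrophages (-0.17). Against Plac8 monocytes they numbered 5 and 1 of 22 (0.71). Prdx6, a peroxiredoxin, was at 447 CPM in members against 176 in Mrc1 macrophages, and Gsr, glutathione reductase, at 102 against 30.9. Plac8 monocytes held more Gsr than members did, at 337 CPM. Timp1, the inhibitor of matrix metalloproteinases, was at 148 CPM in members and 236 in Mrc1 macrophages, and Vcan at 194 and 133.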
